A study of Mus musculus with 24 samples.

Results

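TAZ-CAMTA1 was compared with TAZ4SA directly, in 6 of the 24 RNA-seq libraries of the series: 3 from NIH 3T3 cells carrying TAZ-CAMTA1 and 3 from NIH 3T3 cells carrying TAZ4SA. The libraries were taken by their labels, and 14361 genes were tested, those whose counts averaged 5 or more across the 24 libraries. TAZ-CAMTA1 is the more common of the fusion proteins of epithelioid hemangioendothelioma, a vascular sarcoma. It joins the N-terminal part of TAZ, with its TEAD-binding domain, to the C-terminal part of CAMTA1. TAZ4SA is TAZ in which the serines phosphorylated by the LATS kinases were changed to alanine.

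TAZ and its paralog YAP are co-activators at the end of the Hippo pathway. They bind no DNA themselves and act through the TEAD transcription factors, and LATS phosphorylation holds them in the cytoplasm. CAMTA1 is a calmodulin-binding transcription factor of the nervous system, and its C-terminal part holds a transactivation domain and a nuclear localisation signal. The comparison asks which transcripts differ once an active, LATS-resistant TAZ is replaced by the fusion. The constructs also differ in the absent C-terminus of TAZ, in the alanine substitutions and possibly in protein amount, so the part played by CAMTA1 sequence cannot be told apart from these.

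NIH 3T3 is a mouse embryonic fibroblast line. Each library came from a pool of cells stably transduced with a retroviral vector and selected with G418, and the 3 replicates of a group were separate transductions. The label protocol has both groups held at confluence for 48 h, like the empty vector group (EV), and CAMTA1 alone collected before confluence with its own empty vector group (EVsub). The study's methods could be read to include TAZ-CAMTA1 among the lines collected early, so the values of EVsub against EV are given for the largest rises and falls and for the cell cycle genes. YAP5SA, YAP-TFE3 and TFE3 make up the other 9 libraries, each group with 3.

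The TAZ-CAMTA1 libraries held 20906035 to 23923921 counts and the TAZ4SA libraries 16471181 to 21964589. Replicates of TAZ-CAMTA1 resembled one another closely, with correlations of log2 CPM (counts scaled to a common library total) from 0.994 to 0.996, whereas those of TAZ4SA ran from 0.972 to 0.988. TAZ4SA replicate 2 was the shallowest library and lay farthest from TAZ-CAMTA1, and TAZ4SA replicate 3 lay nearest to it. Counts of the mouse genes Wwtr1, which encodes TAZ, and Camta1 did not mark the constructs: Wwtr1 had 151 ± 9.96 CPM with TAZ-CAMTA1 and 162 ± 9.41 with TAZ4SA (SD, n = 3 each) (log2 fold change -0.11 ± 0.09, edgeR adjusted p = 0.317). Camta1 had 4.64 ± 0.339 and 5.81 ± 1.54 CPM (log2 fold change -0.32 ± 0.18, edgeR adjusted p = 0.141). The species of the introduced sequences was not given in the sources used here, so these counts check no label.

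Of the 14361 genes, 7854 (54.7%) passed an adjusted p of 0.05 in edgeR's quasi-likelihood test, 3813 of them (26.6%) higher with TAZ-CAMTA1 and 4041 (28.1%) lower. A change of at least 2-fold was also reached by 1562 genes (10.9%) among the higher and 1457 (10.1%) among the lower. The CPM values of the 2 groups did not overlap for 7926 genes (55.2%). Leaving out TAZ4SA replicate 2 lowered the count to 6697 and leaving out TAZ4SA replicate 3 raised it to 8658. The balance of the calls rested on the scaling: with library totals in place of TMM factors the median of all genes moved from 0.00 to 0.17 and 4816 genes were higher against 2950 lower.

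Against the shared EV libraries, 57.5% of genes (8253) were called for TAZ4SA and 21.5% (3088) for TAZ-CAMTA1. The size of this gap rested on the shared fit: with only the 2 compared groups in each fit, 6019 and 4396 genes were called. These comparisons share libraries with the direct one, so their fold changes are given only side by side with it. EVsub against EV called 22.1%.

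The largest rises were in genes that TAZ4SA cells hardly expressed. Igfbp5 encodes a secreted binding protein for insulin-like growth factors. Its counts were 1376, 622 and 894 in the 3 TAZ-CAMTA1 libraries, 11, 4 and 7 in the TAZ4SA libraries and 103, 258 and 145 in EV. All TAZ-CAMTA1 libraries were above all EV libraries, and these above all TAZ4SA libraries (log2 fold change 6.66 ± 0.51, edgeR adjusted p = 1.72e-09). EVsub held 0, 10 and 2 counts, a log2 fold change of -5.52 against EV. Trabd2b, a membrane metalloprotease that acts on Wnt ligands, had 1805, 1412 and 1299 counts with TAZ-CAMTA1, 45, 23 and 73 with TAZ4SA and 2542, 1447 and 2487 in EV (log2 fold change 4.69 ± 0.33, edgeR adjusted p = 4.10e-10). There TAZ-CAMTA1 was near EV and TAZ4SA was low: the log2 fold change against EV was -0.59 for TAZ-CAMTA1 and -5.28 for TAZ4SA.

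Ptprt, a receptor tyrosine phosphatase, was different, since EV held no count of it in any library. It had 133, 165 and 147 counts with TAZ-CAMTA1 and 3, 1 and 4 with TAZ4SA (log2 fold change 5.42 ± 0.45, edgeR adjusted p = 9.97e-08). Spo11, the topoisomerase-like protein that makes meiotic DNA breaks, had 83, 114 and 116 counts with TAZ-CAMTA1, 1, 2 and 5 with TAZ4SA and 1, 0 and 0 in EV (log2 fold change 4.91 ± 0.46, edgeR adjusted p = 3.09e-07). Both were thus close to silent in TAZ4SA and EV. Aspg, an asparaginase, had 358, 293 and 381 counts with TAZ-CAMTA1 and 1, 1 and 1 with TAZ4SA, a ratio of 272 with a 95% counting interval of 92.7 to 1319. The other members of the 12 largest rises were Fam135b, Serpina3g, Serpind1, Pi15, Arxes1, Sult1a1 and Pknox2. Ptprt, Serpind1, Sult1a1 and Pknox2 overlap a gene on the opposite strand, Aspg overlaps a microRNA gene, and the strand setting of the counting was not given. Of the 12 rises, 6 were called lower in EVsub than in EV (Aspg, Igfbp5, Serpina3g, Pi15, Sult1a1 and Pknox2) and none higher, against 9.59% and 12.5% of all genes. In bulk RNA, fewer cells expressing a gene and less RNA per cell cannot be told apart.

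The largest falls were genes that TAZ4SA cells expressed and that had few or no counts with TAZ-CAMTA1. Vip encodes vasoactive intestinal peptide, a neuropeptide. It had 3360, 1359 and 3803 counts in the TAZ4SA libraries, 1, 0 and 0 in the TAZ-CAMTA1 libraries and none in EV (edgeR adjusted p = 3.79e-12). Il31ra, a receptor subunit for interleukin-31, had 335, 178 and 459 counts with TAZ4SA and none in any TAZ-CAMTA1 or EV library. Taking 3 counts over the group as the limit of detection, Il31ra was at least 410.4-fold lower with TAZ-CAMTA1 (edgeR adjusted p = 1.23e-09).

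Hapln1, which links hyaluronan to proteoglycans, was at least 369-fold lower on the same basis, with 211, 89 and 574 counts in the TAZ4SA libraries (edgeR adjusted p = 9.63e-06), but did not pass with DESeq2 (adjusted p = 0.0589). Upk1b, a tetraspanin of the bladder lining, had 858, 503 and 833 counts with TAZ4SA and 5, 0 and 2 with TAZ-CAMTA1 (log2 fold change -8.56 ± 0.50, edgeR adjusted p = 4.29e-11). Ccl20, a chemokine, had 90, 109 and 438 and 2, 0 and 1 counts, a ratio of 269 with a 95% counting interval of 91.6 to 1308. Replicate 3 was the highest TAZ4SA library for Hapln1 and Ccl20. The remaining genes of the 12 were Parm1, Arhgap36, Oprk1, Tll1, Mmp16, Panx3 and Ptprq. Hapln1, Tll1 and Mmp16 also overlap a gene on the opposite strand. Of the 12, 6 had no count in any TAZ-CAMTA1 library and 5 had none in EV. Vip was the 1 fall called between EVsub and EV, with 13, 7 and 5 counts in the EVsub libraries.

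**Figure D1:**
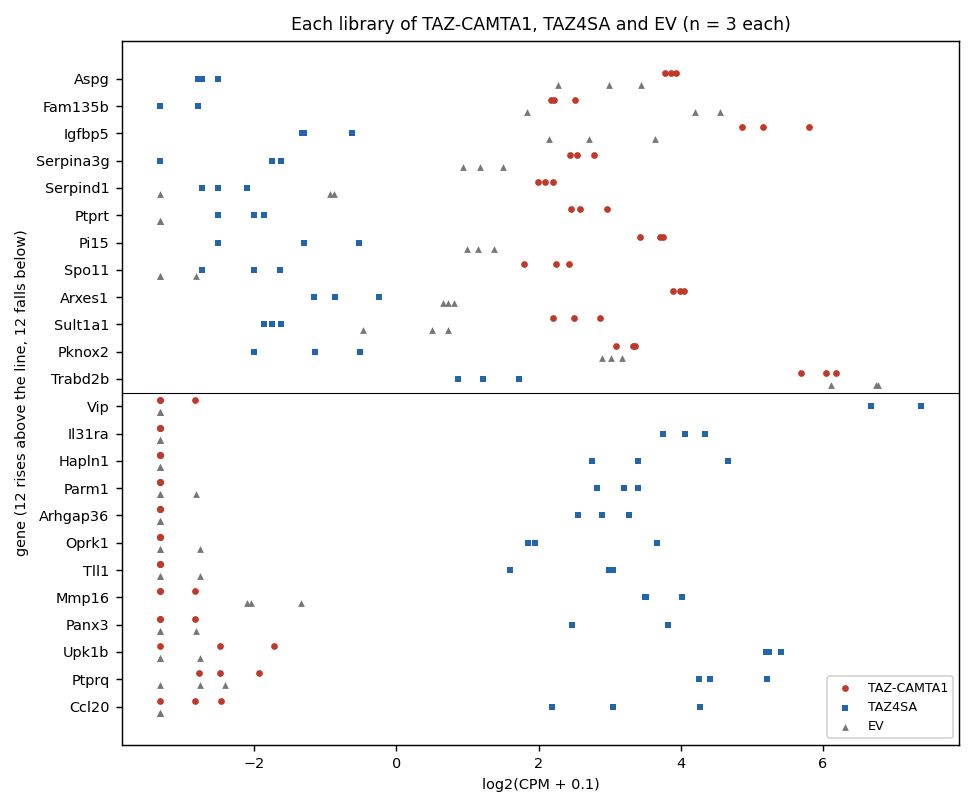
Level of the 12 largest rises (above the line) and 12 largest falls (below) in each library, as log2(CPM + 0.1), for TAZ-CAMTA1 (circles), TAZ4SA (squares) and EV (triangles), 3 libraries each. TAZ-CAMTA1 points lie right of all TAZ4SA points for the rises and at the left edge, with EV, for the falls.

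Genes known to respond to TAZ and YAP did not move as a group. Of 20 tested members of the list of TAZ/YAP targets, 7 were higher and 7 lower with TAZ-CAMTA1, against 26.6% and 28.1% of all genes, and the median log2 fold change was 0.00. Ccn2, a secreted matricellular protein, had 174, 208 and 437 CPM in the TAZ4SA libraries and 29.9, 34.9 and 39.8 in the TAZ-CAMTA1 libraries (log2 fold change -2.97 ± 0.40, edgeR adjusted p = 3.21e-06). Replicate 3 was the highest TAZ4SA library, and EV was below both groups at 17.6 ± 2.74 CPM. Ankrd1, a muscle ankyrin repeat protein, had 92.4 ± 17.9 CPM with TAZ-CAMTA1 and 239 ± 117 with TAZ4SA (log2 fold change -1.37 ± 0.31, edgeR adjusted p = 0.000748).

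For Ccn1, the close relative of Ccn2, the groups overlapped, with 246, 303 and 421 CPM for TAZ-CAMTA1 and 299, 489.7 and 337 for TAZ4SA (log2 fold change -0.21 ± 0.36, edgeR adjusted p = 0.633). Both lay above EV, by 2.53 and 2.74 on the log2 scale. Amotl2, an angiomotin, was lower (log2 fold change -0.46 ± 0.15, edgeR adjusted p = 0.0168) but lost the call in 4 of the 14 alternative analyses. Fjx1, a secreted kinase-like protein, was higher with TAZ-CAMTA1 (log2 fold change 2.00 ± 0.28, edgeR adjusted p = 5.53e-06), and so were Dock5 (log2 fold change 1.22 ± 0.13, edgeR adjusted p = 2.17e-07) and Myof, a membrane repair protein (log2 fold change 0.84 ± 0.14, edgeR adjusted p = 2.86e-05).

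In the Hippo pathway itself, 10 of 29 members were higher (34.5%) and 8 lower (27.6%), against 26.6% and 28.1% of all genes. Ajuba, a LIM protein that restrains LATS, was higher (log2 fold change 0.83 ± 0.13, edgeR adjusted p = 1.34e-05) and Tead2 was lower (log2 fold change -1.16 ± 0.17, edgeR adjusted p = 7.97e-06). Stk3 and Stk4 encode the paired MST kinases and moved apart, Stk3 with a log2 fold change of 1.02 ± 0.21 and Stk4 of -0.75 ± 0.08 (edgeR adjusted p = 0.000316 and 2.39e-07). Lats2 did not pass the test (log2 fold change 0.22 ± 0.13, edgeR adjusted p = 0.177). With library totals as the scaling, 16 members were called higher. Of the 14 subunits of the ATAC acetyltransferase complex, 5 were called higher and 3 lower, none by 2-fold, and only 2 higher calls held with the 2 groups fitted alone.

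The TEAD motif was looked up in promoters because the N-terminal part shared by both proteins binds TEAD. The letters GGAATG, on either strand, occurred within 250 bases before the start in 12.6% of 32851 mouse promoters of RefSeq (build GRCm38.p6) and in 10.99% of the 13005 found for genes tested. They occurred in 6 of the 15 promoters found for 13 of the 20 tested TAZ/YAP targets. The share was 14.3% of 1354 promoters of genes at least 2-fold higher with TAZ-CAMTA1 and 10.7% of 1136 promoters of genes at least 2-fold lower, which were found for 1051 of 1562 and 871 of 1457 genes. Stretches of 60 bases are shown for 3 targets, Ccn1, Ankrd1 and Amotl2, and for a gene of the largest rises and one of the largest falls, with the motif in capitals.
Ccn1, chr3:145650055-145650114, minus strand: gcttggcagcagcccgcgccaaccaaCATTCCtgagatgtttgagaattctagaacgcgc
Ankrd1, chr19:36120021-36120080, minus strand: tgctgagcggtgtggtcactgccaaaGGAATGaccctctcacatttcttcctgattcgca
Amotl2, chr9:102717713-102717772, plus strand: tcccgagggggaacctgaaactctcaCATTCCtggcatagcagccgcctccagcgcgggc
Igfbp5, chr1:72875056-72875115, minus strand: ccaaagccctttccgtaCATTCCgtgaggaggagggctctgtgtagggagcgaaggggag
Ccl20, chr1:83116695-83116754, plus strand: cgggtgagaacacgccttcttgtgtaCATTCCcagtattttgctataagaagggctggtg
The same letters thus stood before Igfbp5, which was higher with TAZ-CAMTA1, and before Ccl20, which was lower. They also stood before Arhgap36 and Tll1, both among the largest falls. Ankrd1 had a further match outside the bases shown. A match describes the letters only and is not a measured site.

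Ribosomal protein genes had the largest share of members called in 1 direction among the lists with 8 or more members tested. Of 55 cytosolic ribosomal protein genes tested, 54 were lower with TAZ-CAMTA1, each by at least 2-fold, and none higher, and the median log2 fold change was -1.57 against 0.00 over all genes. Rpl24 was the gene that did not pass, and over all genes 28.1% were lower, 10.1% by at least 2-fold. Rpl28 had 415, 459 and 409 CPM in the TAZ-CAMTA1 libraries and 1815, 2346 and 1040.0 in the TAZ4SA libraries (log2 fold change -2.02 ± 0.21, edgeR adjusted p = 1.37e-07). The groups did not overlap, and among TAZ4SA libraries replicate 2 was highest and replicate 3 lowest.

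The list took 3.69 to 3.97% of all counts in the TAZ-CAMTA1 libraries, 7.68 to 11.7% in the TAZ4SA libraries and 4.33 to 5.21% in EV. Against EV the median was -0.34 for TAZ-CAMTA1 and 1.20 for TAZ4SA. The count of 54 held without TAZ4SA replicate 2, without replicate 3, with library totals and when these genes were left out of the scaling. Ribosomal protein genes have many near-identical pseudogenes, between which the counting could split reads.

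Nuclear subunits of oxidative phosphorylation went the same way, with 31 of 55 lower and 5 higher, against 28.1% and 26.6% of all genes. In contrast, 9 of 13 mitochondrially encoded subunits were higher and 1 lower. Over the 68 subunits 32 were lower, and 18 with the 2 groups fitted alone. Among 40 genes of amino acid supply and the ATF4 response, 18 were lower and 4 higher. Of 8 regulators 6 were lower and 1 higher, and of 13 tRNA synthetases 7 were lower and 0 higher. Of 19 synthesis and transport genes 5 were lower (26.3%) and 3 higher, with a median of 0.09. Ddit4 and Ddit3, stress-induced regulators, had log2 fold changes of -2.22 and -1.93 (edgeR adjusted p = 2.11e-09 and 5.88e-07), whereas Slc1a5, a glutamine transporter, was higher (log2 fold change 1.06 ± 0.19, edgeR adjusted p = 8.05e-05). Without TAZ4SA replicate 3 the higher members of the 40 numbered 10, and with library totals 8 were higher and 12 lower.

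Genes of DNA replication were mostly higher with TAZ-CAMTA1: 27 of 47 rose and 3 fell, against 26.6% and 28.1% of all genes. Their median was 0.62. Cdc6, which loads the replicative helicase, had 12.5, 16.6 and 18.4 CPM in the TAZ-CAMTA1 libraries and 3.08, 2.17 and 5.76 in the TAZ4SA libraries (log2 fold change 2.07 ± 0.40, edgeR adjusted p = 0.000174). The groups did not overlap. Tk1 and Rrm2, which supply nucleotides, rose by 2.05 ± 0.36 and 1.96 ± 0.39 on the log2 scale (edgeR adjusted p = 7.00e-05 and 0.000220). Cdt1, another loading factor, was lower (log2 fold change -1.07 ± 0.26, edgeR adjusted p = 0.00131).

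Of 50 genes of G2 and mitosis, 9 were higher and 1 lower, fewer than the background share in both directions, though their median was 0.41. The count of 9 moved between 2, without TAZ4SA replicate 1, TAZ4SA replicate 2 or TAZ-CAMTA1 replicate 3, and 26, without TAZ4SA replicate 3. It was 4 without TAZ-CAMTA1 replicate 2, 14 without TAZ-CAMTA1 replicate 1 and 21 with no filter on low counts. The 27 replication genes became 16 without TAZ-CAMTA1 replicate 2 or without TAZ4SA replicate 1, and the 3 lower ones 1 without TAZ-CAMTA1 replicate 1 or TAZ4SA replicate 2. EVsub lay above EV by a median of 0.95 for the replication genes and 2.01 for the mitotic genes, and the part of cell density in the difference was not tested.

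Cyclin D1 and the CDK inhibitor p21 moved in opposite directions. Ccnd1 had 289, 426 and 412 CPM in the TAZ-CAMTA1 libraries and 40.5, 55.6 and 127 in the TAZ4SA libraries (log2 fold change 2.33 ± 0.36, edgeR adjusted p = 1.69e-05). Cdkn1a, which encodes p21, had 105, 115 and 109.7 and 539, 813 and 307 CPM (log2 fold change -2.33 ± 0.26, edgeR adjusted p = 2.78e-07). TAZ4SA replicate 3 was the library nearest to TAZ-CAMTA1 for both genes, and without it the Ccnd1 difference was 2.97. Myc was lower with TAZ-CAMTA1 (log2 fold change -1.34 ± 0.15, edgeR adjusted p = 3.53e-07). Over the list of G1 regulators 3 of 11 were higher (27.3%) and 4 lower (36.4%), against 26.6% and 28.1% of all genes. In EVsub against EV 6 of the 11 were higher and 1 lower, against 12.5% and 9.59% of all genes, with a median of 0.47.

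The letters TTTCCCGC or TTTGGCGC, forms of the site bound by E2F factors of S phase, stood before 6 of 45 promoters of 38 of the replication genes on either strand, against 2.31% of the promoters of genes tested and 1.30% of all promoters. They are shown in capitals for 3 of these genes.
Cdc6, chr11:98907987-98908046, plus strand: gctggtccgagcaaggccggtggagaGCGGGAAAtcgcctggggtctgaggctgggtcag
Mcm5, chr8:75109334-75109393, plus strand: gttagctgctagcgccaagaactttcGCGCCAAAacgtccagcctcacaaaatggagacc
Mcm6, chr1:128359782-128359841, minus strand: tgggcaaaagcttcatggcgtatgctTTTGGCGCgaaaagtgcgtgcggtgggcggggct
Mcm5 and Mcm6 encode subunits of the replicative helicase and were higher with TAZ-CAMTA1, at 72.9 ± 15.8 against 22.1 ± 8.31 CPM and 128 ± 12.1 against 47.8 ± 21.3 CPM (SD, n = 3; edgeR adjusted p = 0.000350 and 0.000120). Mcm6 had a further match outside the bases shown.

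**Figure D2:**
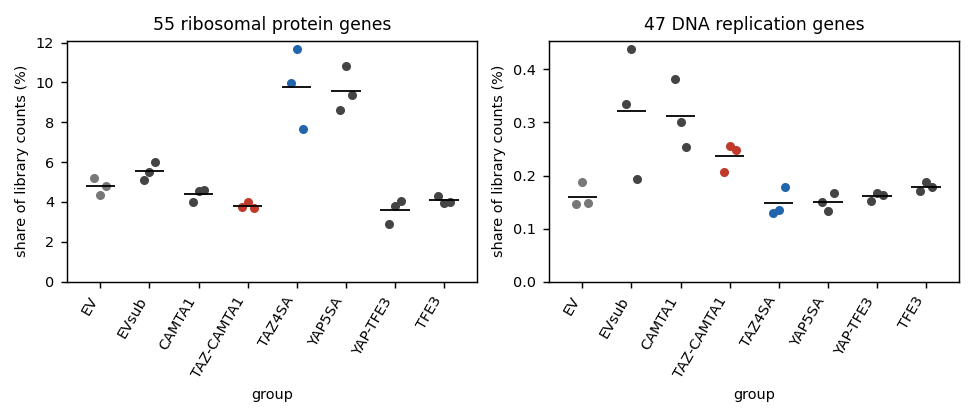
Share of each library's counts, in percent, taken by the 55 ribosomal protein genes (left) and the 47 DNA replication genes (right) in all 8 groups; points are libraries and bars are means of 3. Ribosomal protein genes took 7.68 to 11.7% with TAZ4SA and 3.69 to 3.97% with TAZ-CAMTA1, and replication genes spread widely among the EVsub libraries.

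Several groups of extracellular matrix genes had more members higher than lower with TAZ-CAMTA1, where 26.6% of all genes were higher and 28.1% lower. Among elastic fibre and small proteoglycan genes 18 of 30 were higher and 2 lower, with a median of 0.62. Ogn, a small leucine-rich proteoglycan, had 1437, 1417 and 1724 CPM in the TAZ-CAMTA1 libraries and 118, 94.5 and 291 in the TAZ4SA libraries (log2 fold change 3.18 ± 0.50, edgeR adjusted p = 1.87e-05). Fbln5, needed to assemble elastic fibres, had 459 ± 50.7 CPM against 169 ± 46.1 (SD, n = 3) (log2 fold change 1.44 ± 0.16, edgeR adjusted p = 1.99e-07). Ltbp1, which binds latent TGF-beta, was lower (log2 fold change -1.01 ± 0.18, edgeR adjusted p = 7.53e-05).

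Of 17 matricellular genes 10 were higher (58.8%) and 5 lower (29.4%), against 26.6% and 28.1% of all genes. Spp1, osteopontin, had 973, 1316 and 1282 CPM with TAZ-CAMTA1, 28.9, 52.8 and 127 with TAZ4SA and 1493, 2291 and 1859 in EV (log2 fold change 4.09 ± 0.40, edgeR adjusted p = 5.12e-08). The TAZ4SA libraries were far below both other groups, replicate 3 least so. The thrombospondins split, Thbs2 being higher (log2 fold change 3.05 ± 0.28, edgeR adjusted p = 2.06e-08) and Thbs1 lower (log2 fold change -2.03 ± 0.31, edgeR adjusted p = 1.54e-05).

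Collagens were divided, with 13 of 30 higher (43.3%) and 8 lower (26.7%), against 26.6% and 28.1% of all genes. Col12a1 (log2 fold change 1.61 ± 0.13, edgeR adjusted p = 4.46e-09) and Col6a3 (log2 fold change 1.54 ± 0.20, edgeR adjusted p = 2.18e-06) were higher, and Col5a3 was lower (log2 fold change -2.23 ± 0.28, edgeR adjusted p = 1.23e-06). Basement membrane genes had 8 of 20 higher (40%) and 5 lower (25%). Their 10 tested laminins were evenly split, with 4 higher and 4 lower. Lamb3 was higher (log2 fold change 2.61 ± 0.37, edgeR adjusted p = 1.41e-05) and Lama5 lower (log2 fold change -3.35 ± 0.32, edgeR adjusted p = 3.15e-08). Among matrix proteases and their inhibitors 15 of 31 were higher and 7 lower. Mmp9, a gelatinase, was higher (log2 fold change 3.03 ± 0.60, edgeR adjusted p = 0.000248).

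Of 16 integrin genes 9 were higher and 2 lower, against 26.6% and 28.1% of all genes. Adaptors and kinases of focal adhesions had 5 of 20 in each direction. Itgb8, which takes part in TGF-beta activation, was higher (log2 fold change 2.97 ± 0.27, edgeR adjusted p = 1.97e-08), and Itgb4, a hemidesmosome integrin, was lower (log2 fold change -1.50 ± 0.26, edgeR adjusted p = 6.06e-05). Actomyosin genes had 12 of 39 higher (30.8%) and 10 lower (25.6%), near the shares of all genes. Acta2, smooth muscle actin, rose (log2 fold change 1.29 ± 0.22, edgeR adjusted p = 5.19e-05). In the cadherin list 7 of 17 went each way, with Pcdh7 higher (log2 fold change 3.62 ± 0.24, edgeR adjusted p = 2.27e-10) and Pcdh9 lower (log2 fold change -3.86 ± 0.39, edgeR adjusted p = 8.69e-08). Guidance genes had 15 of 35 higher and 11 lower, or 7 lower with library totals, Sema3a being lower (log2 fold change -2.34 ± 0.29, edgeR adjusted p = 1.07e-06).

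**Figure D3:**
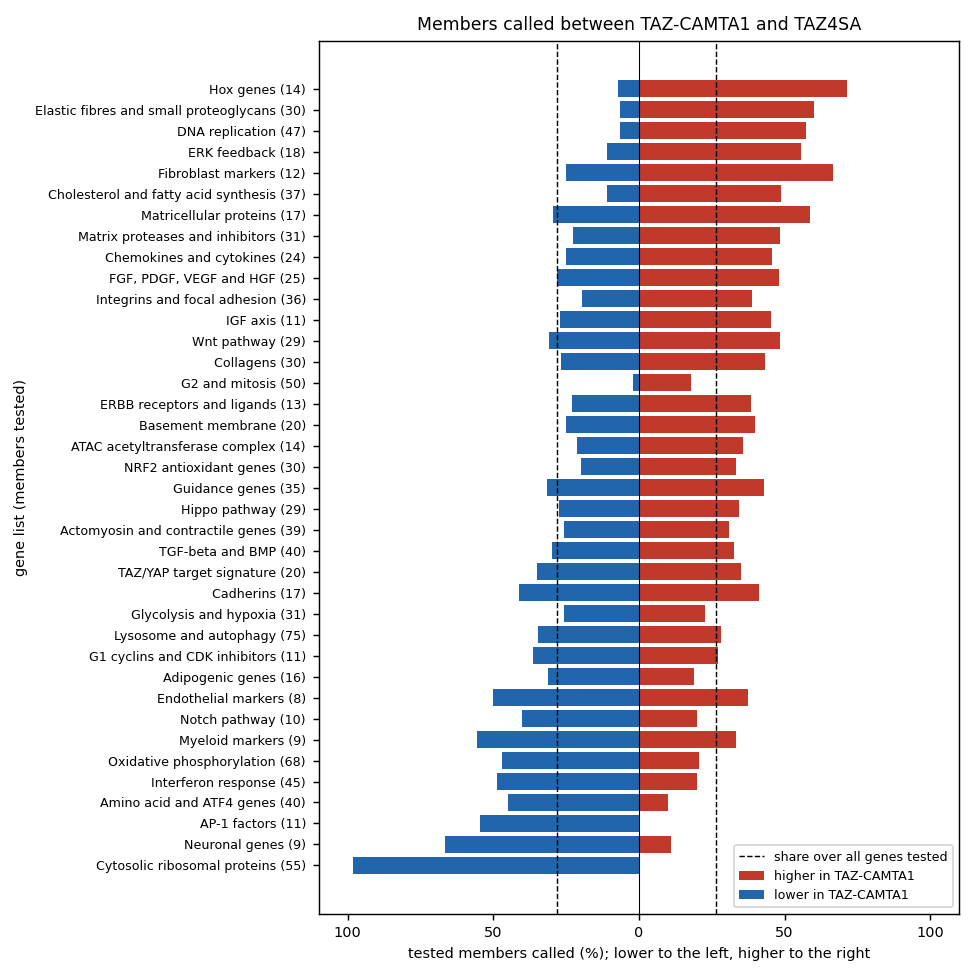
Percent of tested members of each gene list called higher (right) or lower (left) with TAZ-CAMTA1, for lists with 8 or more members tested; dashed lines mark 26.6% and 28.1%, the shares over all 14361 genes. Ribosomal proteins reach farthest left and Hox genes farthest right.

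Among signalling genes, those of the ERK feedback list were mostly higher with TAZ-CAMTA1 and AP-1 genes were not. The ERK feedback list also holds transcription factor genes that respond to ERK, such as Egr2, Etv4 and Etv5. AP-1 factors join Fos and Jun proteins. With TAZ-CAMTA1 6 of their 11 tested genes were lower and none higher, against 28.1% and 26.6% of all genes. Junb was lower (log2 fold change -1.47 ± 0.34, edgeR adjusted p = 0.000927), as was Atf3 (log2 fold change -1.02 ± 0.17, edgeR adjusted p = 3.67e-05). Fos was called (log2 fold change -1.07 ± 0.43, edgeR adjusted p = 0.0399) but lost the call in 7 of the 14 alternative analyses. The ERK feedback list had 10 of 18 higher (55.6%) and 2 lower (11.1%), and Egr2, Etv5 and Etv4 were among the higher. Egr2 had 4.21, 3.26 and 5.95 CPM in the TAZ-CAMTA1 libraries, 0.248, 0.375 and 0.616 in the TAZ4SA libraries and 15.5, 12.7 and 12.6 in EV (log2 fold change 3.39 ± 0.40, edgeR adjusted p = 5.44e-07). All TAZ-CAMTA1 libraries were thus between the other groups. The 2 lower members were Spry1 and Dusp4, a phosphatase of the same pathway (Dusp4 log2 fold change -2.12 ± 0.27, edgeR adjusted p = 1.42e-06).

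Among ERBB genes 5 of 13 were higher and 3 lower, against 26.6% and 28.1% of all genes. Ereg, the ligand epiregulin, had 32.5, 45.8 and 47.8 CPM in the TAZ-CAMTA1 libraries and 1.93, 2.32 and 6.02 in the TAZ4SA libraries (log2 fold change 3.57 ± 0.39, edgeR adjusted p = 2.03e-07). EV, at 3.85 ± 1.82 CPM, was close to TAZ4SA, and without TAZ4SA replicate 3 the difference was 4.31. The receptor Erbb3 was also higher (log2 fold change 1.40 ± 0.42, edgeR adjusted p = 0.00770), and the ligand Nrg1 was lower (log2 fold change -0.93 ± 0.16, edgeR adjusted p = 6.93e-05). Leaving out TAZ4SA replicate 1 left 3 higher ERBB genes, and library totals gave 8.

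In the IGF axis 5 of 11 were higher and 3 lower, against 26.6% and 28.1% of all genes. Its median log2 fold change was 0.02. The binding proteins had 3 of 4 higher, Igfbp5 among them, and the ligands, receptors and adaptors 2 of 7 higher and 3 lower. The ligand Igf1 was higher (log2 fold change 3.07 ± 0.45, edgeR adjusted p = 7.09e-06), and its receptor Igf1r (log2 fold change -0.64 ± 0.10, edgeR adjusted p = 1.75e-05) and the adaptor Irs2 (log2 fold change -1.07 ± 0.14, edgeR adjusted p = 2.38e-06) were lower. Without TAZ4SA replicate 3 the Igf1 difference was 4.25. Of the FGF, PDGF, VEGF and HGF family genes 12 of 25 were higher and 7 lower. Receptors Fgfr1 (log2 fold change 1.34 ± 0.15, edgeR adjusted p = 2.72e-07) and Pdgfra (log2 fold change 1.24 ± 0.28, edgeR adjusted p = 0.000949) were higher, and the ligand Vegfa was lower (log2 fold change -1.35 ± 0.12, edgeR adjusted p = 1.17e-08).

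TGF-beta and BMP genes had 13 of 40 higher (32.5%) and 12 lower (30%), against 26.6% and 28.1% of all genes. Inhba, a subunit of activin, had 1.58, 1.86 and 1.64 CPM with TAZ-CAMTA1 and 36.5, 34.7 and 94.3 with TAZ4SA (log2 fold change -5.03 ± 0.47, edgeR adjusted p = 2.35e-08), and its antagonist Fst was lower too (log2 fold change -3.32 ± 0.37, edgeR adjusted p = 2.57e-07). The receptor Tgfbr1 was higher (log2 fold change 2.39 ± 0.24, edgeR adjusted p = 7.09e-08). Of 16 Wnt ligands listed 7 were tested, 5 lower and 1 higher. Against EV, 5 of the 7 were higher for TAZ4SA and 2 for TAZ-CAMTA1, with medians of 2.60 and 0.74. Ligands low in every group did not pass the count filter, which can favour this direction. Of 17 receptors and antagonists 11 were higher and 3 lower, and of 5 targets 2 were higher and 1 lower. Fzd1, a Wnt receptor, had 125, 89.7 and 101 CPM with TAZ-CAMTA1 and 10.1, 9.74 and 11.96 with TAZ4SA (log2 fold change 3.31 ± 0.19, edgeR adjusted p = 4.29e-11). In the Notch pathway 10 of 16 were tested, 4 lower and 2 higher, with a median of -1.01. With at least 10 counts required in every library 5 were left, 1 lower and 2 higher, with a median of -0.09. The ligand Jag1 had 28.3, 18.6 and 11.9 and 115, 109 and 114 CPM (log2 fold change -2.52 ± 0.25, edgeR adjusted p = 5.70e-08), and the target Hes1 was lower (log2 fold change -2.75 ± 0.50, edgeR adjusted p = 9.85e-05).

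Interferon-responsive genes were lower for 22 of 45 and higher for 9, against 28.1% and 26.6% of all genes. Rtp4 (log2 fold change -2.80 ± 0.26, edgeR adjusted p = 2.42e-08), Ifit3 (log2 fold change -2.20 ± 0.51, edgeR adjusted p = 0.00106) and Isg20 (log2 fold change -1.67 ± 0.21, edgeR adjusted p = 1.08e-06) were lower, and Ifit2 was higher (log2 fold change 1.34 ± 0.19, edgeR adjusted p = 5.80e-06). Of 13 chemokines 7 were higher and 3 lower, and of 11 cytokines 4 and 3. Ccl2, which attracts monocytes, had 118, 153 and 156 CPM with TAZ-CAMTA1 and 8.73, 5.70 and 15.4 with TAZ4SA (log2 fold change 3.81 ± 0.35, edgeR adjusted p = 2.00e-08), opposite to Ccl20.

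Cholesterol synthesis and uptake genes had 16 of 24 members higher and none lower, against 26.6% and 28.1% of all genes. Fatty acid synthesis had 2 of 13 higher and 4 lower. Hmgcs1, an early enzyme of the pathway, had 203, 367 and 287 CPM in the TAZ-CAMTA1 libraries, 53.9, 45.7 and 145 in the TAZ4SA libraries and 262, 431 and 423 in EV (log2 fold change 1.80 ± 0.36, edgeR adjusted p = 0.000228). TAZ4SA replicate 3 was the nearest to TAZ-CAMTA1, and without it the difference was 2.52.

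Lysosome and autophagy genes were split by role, where 26.6% of all genes were higher and 28.1% lower. Of 29 hydrolases 13 were higher and 5 lower, of 22 membrane and V-ATPase genes 2 were higher and 9 lower, and of 24 autophagy and MiT/TFE genes 6 were higher and 12 lower. Ctsk, cathepsin K, was higher (log2 fold change 2.48 ± 0.20, edgeR adjusted p = 3.32e-09), as was Mitf (log2 fold change 1.76 ± 0.23, edgeR adjusted p = 1.49e-06). The 26 lower members of the whole list became 16 without TAZ4SA replicate 2 and 41 without replicate 3, 17 with library totals and 11 with the 2 groups fitted alone. NRF2 targets had 10 of 30 higher (33.3%) and 6 lower (20%), led by Aldh3a1, an aldehyde dehydrogenase (log2 fold change 3.86 ± 0.44, edgeR adjusted p = 3.13e-07). Glycolysis and hypoxia genes had 7 of 31 higher (22.6%) and 8 lower (25.8%), and adipogenic genes 3 of 16 (18.75%) and 5 (31.25%). The 3 higher adipogenic genes became 1 without TAZ-CAMTA1 replicate 1, TAZ4SA replicate 1 or TAZ4SA replicate 3. Fabp4, a fatty acid carrier, was lower (log2 fold change -4.97 ± 0.46, edgeR adjusted p = 2.42e-08).

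**Figure D4:**
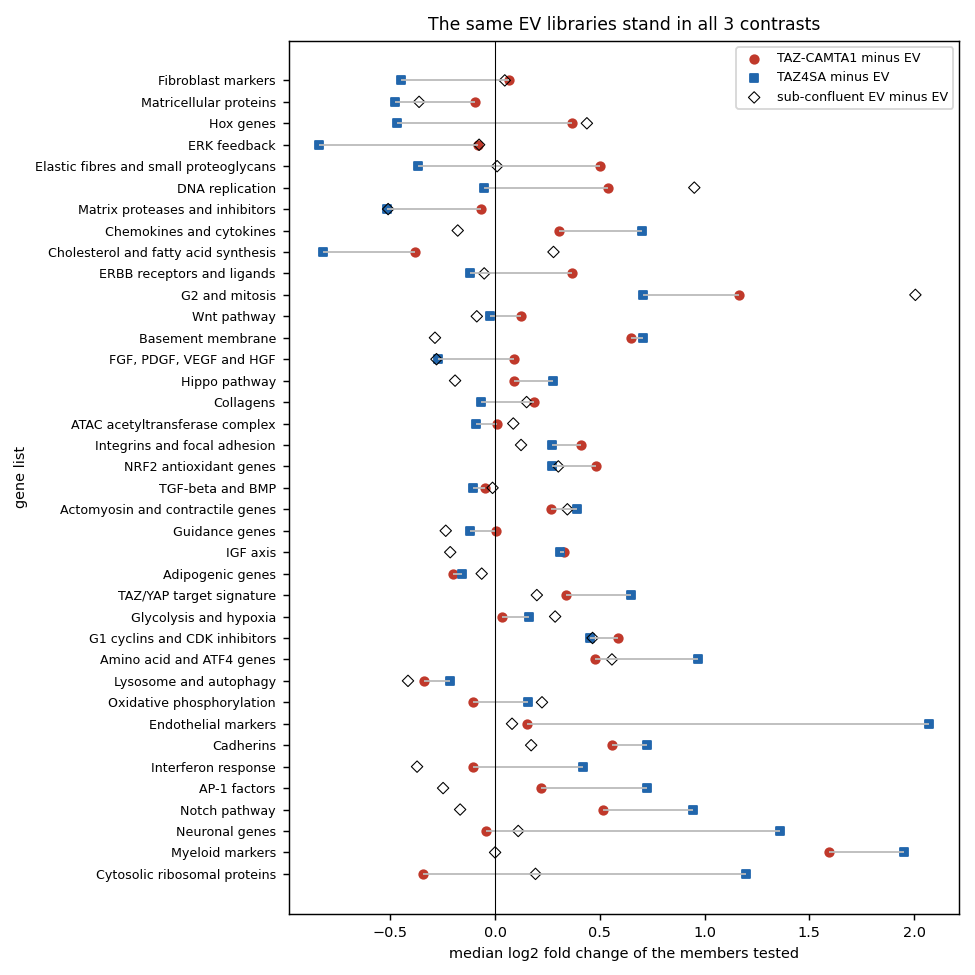
Median log2 fold change of the tested members of each list against the same EV libraries, for TAZ-CAMTA1 (circles), TAZ4SA (squares) and EVsub (diamonds); grey lines join the first 2. Ribosomal proteins stand at 1.20 for TAZ4SA and -0.34 for TAZ-CAMTA1, and the ERK feedback list at -0.84 and -0.08.

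All 12 markers of fibroblasts were tested. Of these, 8 were higher with TAZ-CAMTA1 than with TAZ4SA and 3 lower, against 26.6% and 28.1% of all genes. Their summed level was 39671 to 45367 CPM with TAZ-CAMTA1, 21422 to 27478 with TAZ4SA and 36771 to 40461 in EV. Against EV, TAZ4SA had 5 lower and 2 higher, where 26.4% and 31.1% of all genes were called, and TAZ-CAMTA1 had 1 lower and 2 higher, where 8.98% and 12.5% were. Fn1, fibronectin, was higher (log2 fold change 1.24 ± 0.19, edgeR adjusted p = 1.04e-05). Fap, a surface protease of activated fibroblasts, had 10.8, 9.74 and 13.4 CPM with TAZ4SA and 0.162, 0.140 and 0.279 with TAZ-CAMTA1 (log2 fold change -5.82 ± 0.51, edgeR adjusted p = 9.92e-09). Of 38 Hox genes, which hold positional identity, 14 were tested, 10 higher and 1 lower, with a median of 0.72. With no filter on low counts 31 were tested, again 10 higher and 1 lower, and the median was -0.22.

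Endothelial genes gave no common direction, with 8 of 20 tested, 3 higher and 4 lower, against 26.6% and 28.1% of all genes. Kdr, a VEGF receptor, had 11.2, 10.1 and 7.61 CPM with TAZ4SA and 0.0809, 0.419 and 0.319 with TAZ-CAMTA1 (log2 fold change -5.14 ± 0.39, edgeR adjusted p = 1.72e-09), and Flt1 was lower (log2 fold change -2.28 ± 0.13, edgeR adjusted p = 2.81e-11). Tek, the angiopoietin receptor, was higher at 2.48 ± 0.381 against 0.208 ± 0.0805 CPM (SD, n = 3; edgeR adjusted p = 5.28e-06), as was Cdh5, the endothelial cadherin, at 1.67 ± 0.359 against 0.254 ± 0.0514 (edgeR adjusted p = 5.26e-05). Sox17 had no count in any of these libraries and Tie1 none with TAZ-CAMTA1. The summed list was 23.8 to 30.6 CPM with TAZ-CAMTA1 and 89.6 to 103.0 with TAZ4SA. The 4 lower calls became 2 without TAZ4SA replicate 1.

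Myeloid markers had 9 of 20 tested, 3 higher and 5 lower, against 26.6% and 28.1% of all genes. Their summed level was 57.1 to 60.8 CPM with TAZ-CAMTA1 and 26.8 to 79.4 with TAZ4SA. Lyz2, lysozyme, had 23.99, 20.96 and 19.9 CPM with TAZ-CAMTA1 and 0.496, 1.57 and 0.748 with TAZ4SA (log2 fold change 4.62 ± 0.38, edgeR adjusted p = 3.87e-09), and Cd68 had 1.82, 1.77 and 2.55 and 56.01, 53.8 and 12.1 (log2 fold change -4.30 ± 0.41, edgeR adjusted p = 3.62e-08). Adgre1, Tyrobp, C1qa, C1qb and Cybb had no count in any library of TAZ-CAMTA1, TAZ4SA or EV. Neuronal genes had 9 of 26 tested, 6 lower and 1 higher, Ncam1 being lower (log2 fold change -2.33 ± 0.17, edgeR adjusted p = 5.68e-10). Muscle markers had 3 of 10 tested, all lower. The summed list was 2.14 to 3.23 CPM with TAZ-CAMTA1, 9.37 to 20.3 with TAZ4SA and 0.382 to 0.802 in EV. Such genes pass the count filter largely through groups where they are high, so their shared direction is no independent result. Of 2 tested epithelial markers Cdh1 was higher (log2 fold change 4.02 ± 0.65, edgeR adjusted p = 2.70e-05) and Krt14 lower (log2 fold change -1.95 ± 0.47, edgeR adjusted p = 0.00163).

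The difference between the fusion and its active parent was set beside that of YAP-TFE3, the less common fusion protein of the same sarcoma. YAP-TFE3 against YAP5SA shares no library with the first contrast and called 70.9% of genes. Of the 1562 genes at least 2-fold higher with TAZ-CAMTA1 than with TAZ4SA, 1230 (78.7%) were also at least 2-fold higher with YAP-TFE3 than with YAP5SA, against 22.2% of all genes, or 38.6% of the 3184 such genes there, and 39 were at least 2-fold lower. Of the 1457 lower genes 1053 (72.3%) were lower in both, against 16.9% of all genes and as 43.5% of 2422, and 32 were higher with YAP-TFE3. Of the 12 largest rises 11 were called higher with YAP-TFE3, against 36.4% of all genes, and of the 12 largest falls 10 were called lower, against 34.5%. The median of the ribosomal protein genes was -1.77 there.

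CAMTA1 alone, against EVsub, called 2.18% of genes, 94 at least 2-fold higher (0.655%) and 57 at least 2-fold lower (0.397%). Of the 1562 genes higher with TAZ-CAMTA1, 20 were at least 2-fold higher with CAMTA1 and 34 at least 2-fold lower, and of the 1457 lower genes 5 were lower and 33 higher. Camta1 itself was higher in the CAMTA1 libraries by 1.07 on the log2 scale (edgeR adjusted p = 0.00190). Of the 12 largest rises none was called higher with CAMTA1 and 3 were called lower, Aspg, Serpina3g and Trabd2b, against 1.29% and 0.891% of all genes. With only CAMTA1 and EVsub in the fit, 21 genes were called higher and 1 lower, so these 3 lower calls did not all hold. Most of the other lower calls with CAMTA1 were lost there too.

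**Figure D5:**
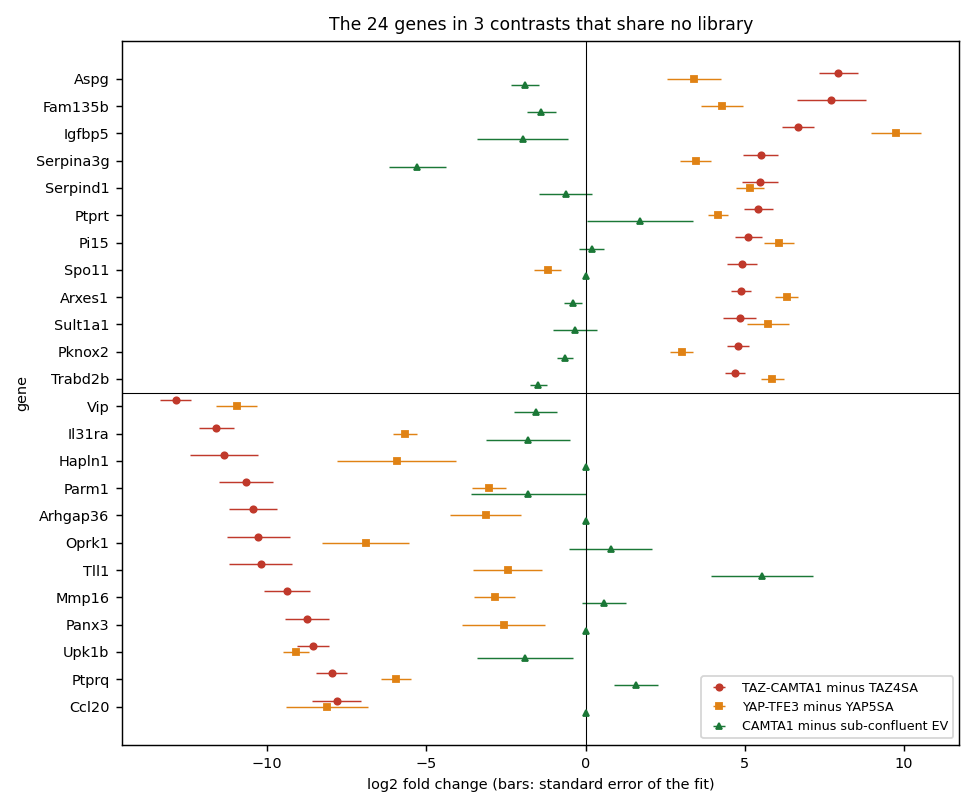
Fitted log2 fold change with its standard error for the 24 genes in TAZ-CAMTA1 against TAZ4SA (circles), YAP-TFE3 against YAP5SA (squares) and CAMTA1 against EVsub (triangles), which share no library; folds of genes with no count in a group depend on the fit. Spo11 is the one rise that lies left of 0 with YAP-TFE3, at -1.19.

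The 2 fusion contrasts were tested against each other, and 31.4% of genes differed. Psca, a surface antigen, was higher with TAZ-CAMTA1 than with TAZ4SA, with 140, 207 and 241 against 11, 8 and 3 counts (log2 fold change 4.36 ± 0.49, edgeR adjusted p = 5.35e-07), and lower with YAP-TFE3 than with YAP5SA (-3.82 ± 0.49 on the log2 scale). Its difference between the contrasts was 8.17 ± 0.69 (edgeR adjusted p = 1.26e-07). Ccn1, which did not pass the test between TAZ-CAMTA1 and TAZ4SA, was lower with YAP-TFE3 than with YAP5SA (-3.52 ± 0.39), and the contrasts differed by 3.30 ± 0.52 (edgeR adjusted p = 7.26e-05). Ajuba 2.16 ± 0.18 and Erbb3 4.06 ± 0.68 also differed (edgeR adjusted p = 6.15e-08 and 0.000148).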

How the data were processed

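RNA-seq counts of 24 NIH 3T3 libraries, 8 groups of 3, were analysed. The authors sequenced polyA RNA from stranded libraries, demultiplexed with bcl2fastq, aligned to mm10 with Hisat2 and deposited raw counts per gene without normalisation. Their methods also name Salmon with tximport for gene-level counts; the deposited counts are whole numbers, and which program made them and its strand setting were not given in the sources used here. Symbols came from GENCODE M21, which held 37607 of 39017 identifiers. Groups followed the sample titles. All libraries entered 1 edgeR 4.0.16 quasi-likelihood fit (R 4.3.3) with TMM factors, for genes averaging 5 or more counts, and p-values were adjusted over 14361 genes by Benjamini-Hochberg. Genes with an adjusted p under 0.05 were called. Standard errors are the fold change over the root of F. CPM use TMM-scaled totals.

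Genes named were the 12 largest rises and falls among called genes with non-overlapping groups and a mean of 50 counts over the 6 libraries, the 3 largest each way in each of 40 lists, 3 each way by the difference of the fusion contrasts, and a short list of fixed genes. Mcm5, Mcm6, Tek, Cdh5, Cdh1, Krt14 and genes at 0 were picked after their values were seen. The comparison, members and lists were chosen with earlier results of these data known. With 200 genes altered in test data made from these libraries, 73% were found at a log2 change of 1 and 91.5% at 2. Another 7 genes were called falsely at each size. Apart from the altered genes, all groups there shared 1 mean and 1 spread per gene. The real groups differ far more widely, so these shares may not hold for them. Alternatives were DESeq2 1.42.0, its size factors, other count filters, a replicate block, the compared groups alone and each library left out. Counting intervals cover counting error only. Some genes the rule picked are not reported here.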

Additional observations from a re-analysis of the deposited data

Results flagged for a closer look

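The following genes, among the largest differences, changed by unequal amounts in the 2 fusion contrasts by an interaction test in the same edgeR fit (TAZ-CAMTA1 against TAZ4SA minus YAP-TFE3 against YAP5SA). Psca differed by 8.17 on the log2 scale (edgeR adjusted p = 1.26e-07) and Spo11 by 6.10 (5.46e-06), both with opposite signs in the contrasts. Pknox2 was higher in both, more so with TAZ-CAMTA1, by 1.75 (0.0223). Il31ra, Parm1, Tll1 and Mmp16 had negative fold changes in both contrasts, and the differences were -5.92, -7.62, -7.75 and -6.51 (edgeR adjusted p = 0.00183, 0.000612, 0.0255 and 0.00114). Tll1 did not pass in YAP-TFE3 against YAP5SA (edgeR adjusted p = 0.0556). Il31ra, Parm1 and Tll1 had no count in any TAZ-CAMTA1 library, so the size of their difference depends on the fit.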

How the results depend on the processing

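The count of genes called between TAZ-CAMTA1 and TAZ4SA stayed within 1.5 times of 7854 in every alternative run, from 5491 with the 2 groups alone to 8658; with 1 library left out it ran from 6697 to 8658. Genes also changed at least 2-fold numbered 3019, 2482 to 3847 with 1 library left out, and 1812 when at least 10 counts were required in every library, where 11461 genes were tested. CAMTA1 against EVsub gave 313 calls, 629 with DESeq2, 674 with no filter on low counts and 22 with the 2 groups alone. Of the 313 calls 185 were higher and 128 lower, and of the 22 calls 21 were higher and 1 lower. EVsub against EV gave 3173, and 1683 with the 2 groups alone. The causes were not tested. Replicate numbers did not pair the samples, since deviations of same-numbered libraries correlated by -0.01, 0.00 and 0.13; with a replicate block 7739 genes were called. Leaving out the ribosomal protein genes from the scaling and using library totals were chosen after seeing the data; they gave 7858 and 7766. Of 232 called genes among the 239 that the naming rule picked, 211 kept the call in every alternative run and none changed sign; Fos, Hapln1, Amotl2, Ccna2, Dlk1, Irs1 and Vim were among the 21 that did not. Small list counts also moved by 1 gene: higher AP-1 genes from 0 to 1 and lower Hox genes from 1 to 2 (each without TAZ-CAMTA1 replicate 1 or TAZ4SA replicate 3, AP-1 also without TAZ4SA replicate 2 and Hox without TAZ4SA replicate 1), and lower elastic fibre and proteoglycan genes from 2 to 1 (without TAZ-CAMTA1 replicate 3 or TAZ4SA replicate 2). Genes near 0 counts are limited by depth, most in TAZ4SA replicate 2.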
